A study of Mus musculus with 13 samples.

Results

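The growth hormone receptor pathway of the liver was followed through 9 genes. These were chosen by their known roles, with earlier results of these data known. They were the receptor Ghr, its kinase Jak2, the transcription factors Stat5a and Stat5b, the feedback inhibitors Socs2 and Cish, the hormone Igf1, its plasma carrier Igfals, and the repressor Bcl6. All 9 were found on the arrays among 22180 genes named by a single symbol, and all 9 were among the 13308 genes tested. Where a gene had several probe sets, the one with the highest mean over the 13 arrays was used. Livers came from male C57Bl/6J mice that were given a diet with 60% fat from 6 weeks of age. After 4 weeks of that diet, the animals of 4 arrays continued on it for 4 more weeks (HFD). Those of 4 arrays received canagliflozin at 25 to 30 mg/kg with the diet over the same 4 weeks (CANA). Those of 5 arrays had their calories restricted by 15 to 30% so that their weight matched the canagliflozin group (CR). Canagliflozin inhibits the renal glucose transporter SGLT2. All 3 groups had thus eaten the high fat diet, and no lean group was analysed here. Separate animals per array are not stated in the labels, so the p-values rest on a spread between samples that may be technical.

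Growth hormone from the pituitary binds its receptor on hepatocytes and activates the kinase JAK2, which phosphorylates STAT5. STAT5 then enters the nucleus and switches on Igf1, Igfals, Socs2 and Cish, of which the last pair feed back to damp the receptor. The liver is the main source of circulating IGF1, and in male rodents growth hormone arrives in pulses, so that STAT5 activity in the liver comes and goes. BCL6 binds many of the same DNA sites as STAT5 and represses genes there, and its own gene is repressed by growth hormone. Fasting and undernutrition are known to lower the response of the liver to growth hormone.

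The values are log2 expression values of the robust multi-array average (RMA), so a difference of 1 is a doubling, and array medians lay between 4.07 and 4.13. Hepatocyte markers were high in every array, with the mean of 6 markers at 12.5 to 12.7. The 5 Kupffer cell markers had means of 5.77 to 6.92 in HFD, 6.21 to 6.75 in CANA and 5.62 to 6.50 in CR, and the 5 endothelial markers had means of 7.44 to 7.76, 7.47 to 7.77 and 7.34 to 7.87. The B cell marker Cd79a lay at 3.53, 3.35 and 3.45 in the group means, under the lowest mean tested (3.95), and the T cell marker Cd3e at 4.29, 4.44 and 4.45. Bcl6 is also used by germinal centre lymphocytes, and their part in its level was not tested. Igf1 is also made by macrophages, and the part of non-hepatocytes in its level was not tested. In whole liver, a change in cell numbers and a change in RNA per cell cannot be told apart. The arrays carry serial numbers in their labels, and each group had arrays in both of the sets numbered 1 to 8 (7 arrays) and 9 to 14 (6 arrays). These numbers name no processing step, and values within the sets stand beside the results they touch.

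STAT5 binds the palindrome TTCNNNGAA, so the promoter windows of the members in RefSeq (build GRCm38.p6, 250 bases before to 50 after each start) were searched for it. The palindrome reads the same on both strands, and sites of STAT3 and BCL6 can overlap with it. Of 32851 promoters in the table, 8.3% held at least 1 match. Among the 8 members with an entry, 14 windows were searched and 5 windows of 3 genes, Cish, Igfals and Bcl6, held a match. Those of Ghr, Jak2, Stat5a, Stat5b and Igf1 held none, and Socs2 had no entry. All 5 stretches with a match are shown, and Bcl6 and Cish are the genes on which the results below turn most. Matches are in capitals, each line runs 5′ to 3′ on the strand of the gene, and positions count from the start site.
Cish, chr9:107296619-107296688, plus strand: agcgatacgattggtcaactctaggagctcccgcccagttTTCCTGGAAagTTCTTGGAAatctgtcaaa
Bcl6, downstream start, chr16:23981323-23981491, minus strand: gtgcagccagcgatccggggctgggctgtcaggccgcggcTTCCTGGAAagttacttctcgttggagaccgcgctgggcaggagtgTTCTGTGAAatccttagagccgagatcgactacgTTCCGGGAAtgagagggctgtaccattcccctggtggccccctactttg
Bcl6, upstream start, chr16:23988922-23989010, minus strand: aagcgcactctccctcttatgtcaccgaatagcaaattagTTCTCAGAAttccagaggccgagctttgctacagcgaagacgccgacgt
Igfals, chr17:24878133-24878221, plus strand: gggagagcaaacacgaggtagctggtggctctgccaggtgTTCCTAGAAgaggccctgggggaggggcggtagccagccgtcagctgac
Igfals, chr17:24877594-24877656, plus strand: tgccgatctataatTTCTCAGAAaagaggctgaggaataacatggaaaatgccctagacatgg
The Cish window had 2 matches, beginning at bases 1 and 12, and 150 of all promoters (0.457%) held 2 or more. The downstream Bcl6 window had 3, beginning at bases -168, -122 and -88, and 11 of all promoters (0.033%) held 3 or more. Each of these cuts was set by the count of the window itself, picked from the 14 searched, so the shares test nothing. A match describes letters, not binding.

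No difference between the groups passed the test for any of the 9 genes. In limma's moderated test, adjusted over all 13308 genes by Benjamini-Hochberg, 0 of 9 passed an adjusted p of 0.05 in CANA against HFD, where 0.165% of all tested genes passed. In CR against HFD it was 0 of 9 with 0% of all genes, and in CANA against CR 0 of 9 with 0.15%. At an unadjusted p under 0.05, 1 of the 9, Ghr, passed in CANA against HFD (8.82% of all genes) and none in CR against HFD (3.74%) or in CANA against CR (8.43%). No member had arrays that were fully apart in any comparison, against 4.9%, 1.17% and 2.93% of all genes. The median difference of the members was -0.12, -0.037 and -0.088 in these comparisons, and that of all tested genes was -0.014, -0.010 and -0.0037. In CANA against HFD 8 of the 9 were below zero, as were 7170 of the 13308 tested genes. The first pair of these comparisons share the HFD arrays and are not independent.

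**Figure D1:**
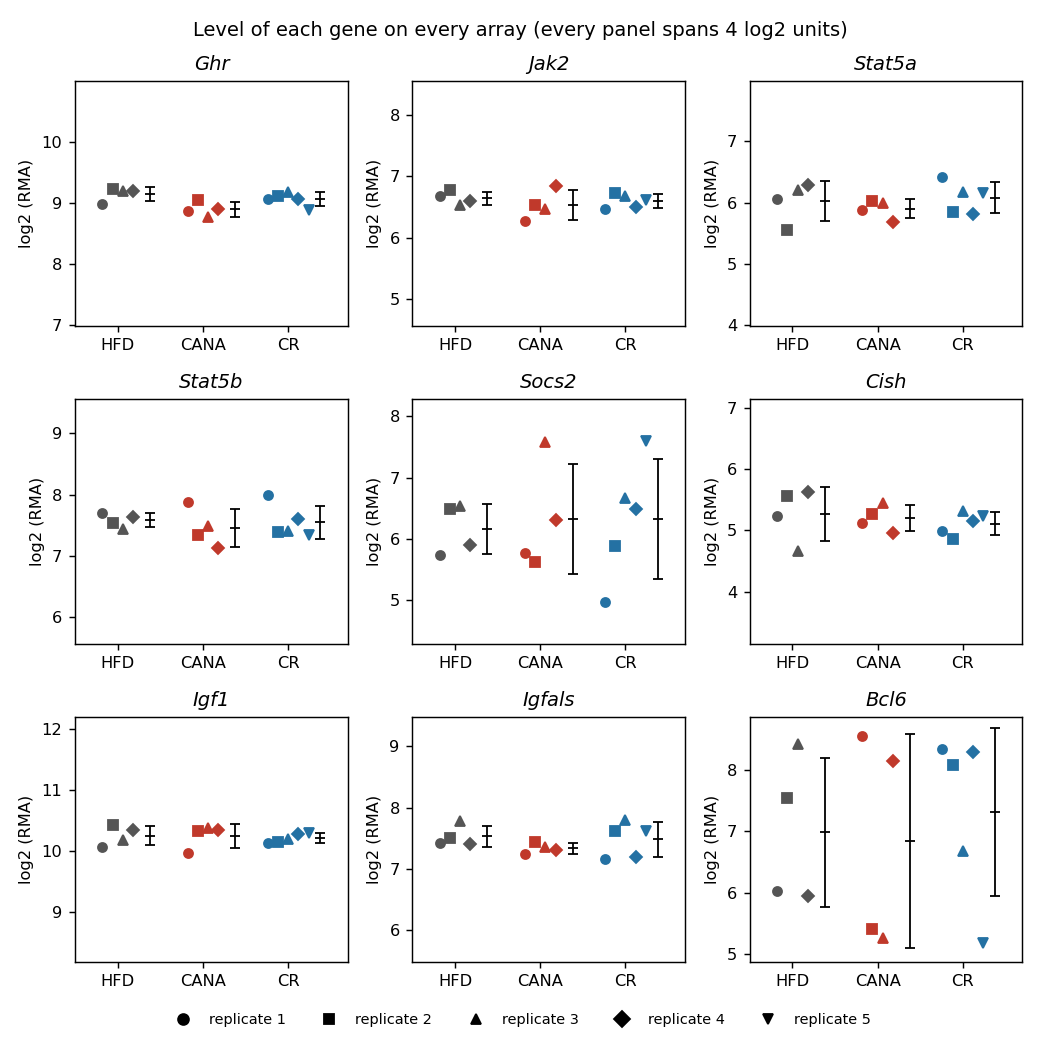
Log2 expression of the 9 genes on each of the 13 arrays by group (4 HFD, 4 CANA, 5 CR; marker shape gives the replicate, the black mark and bar the mean and SD). Every panel spans 4 log2 units, and the groups overlap in each panel. Bcl6, from 5.18 to 8.56, is spread widely inside every group. Socs2, from 4.96 to 7.61, is spread widely inside CANA and CR and less inside HFD, from 5.73 to 6.54.

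**Figure D2:**
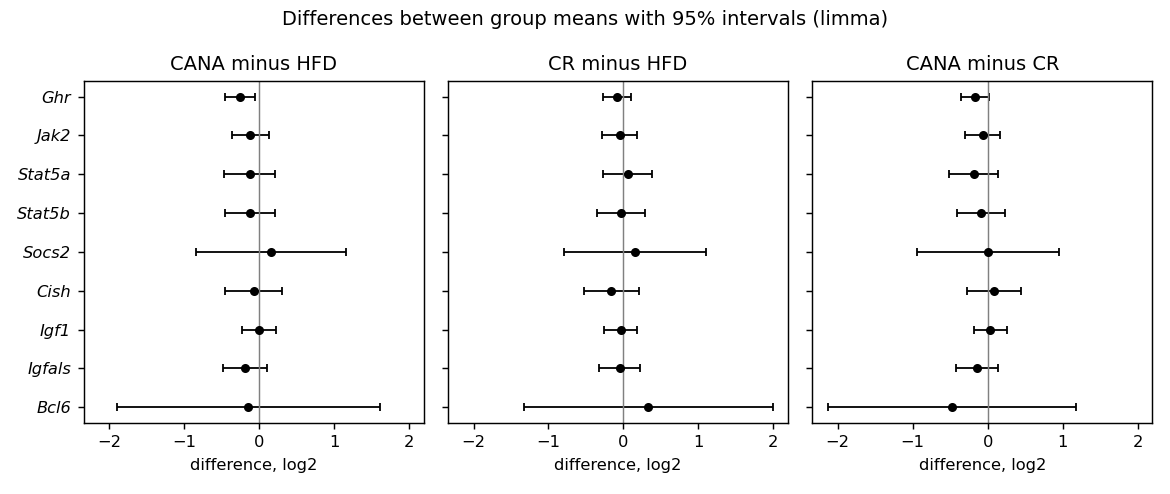
Differences between group means on the log2 scale with 95% intervals from limma, for the 9 genes in the 3 comparisons. The interval of Igf1 in CANA minus HFD runs from -0.23 to 0.23, whereas that of Bcl6 runs from -1.89 to 1.61.

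Ghr encodes the receptor, and by another splice form the growth hormone binding protein of plasma, which this probe set is not stated to separate. It was at 8.97, 9.22, 9.20 and 9.19 in HFD replicates 1 to 4. In CANA replicates 1 to 4 it was at 8.86, 9.04, 8.76 and 8.89. CR replicates 1 to 5 had 9.07, 9.11, 9.18, 9.05 and 8.89. CANA replicate 2 lay above HFD replicate 1, so the groups overlapped, and the other CANA arrays lay below all HFD arrays. The mean was 9.14 ± 0.11 (SD, n = 4) under HFD, 8.89 ± 0.12 (SD, n = 4) under CANA and 9.06 ± 0.11 (SD, n = 5) under CR. The CANA minus HFD difference was -0.25 (SE 0.096, 95% interval -0.46 to -0.052, unadjusted p = 0.0172), a ratio of 0.838, and it did not pass in limma (adjusted p = 0.418). Over 25 other settings it stayed below zero, between -0.36 and -0.15, with adjusted p between 0.328 and 0.967. Against CR the CANA difference was -0.17 (SE 0.091, limma adjusted p = 0.652), and CR against HFD was at -0.085 (SE 0.091, limma adjusted p = 0.999).

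Jak2, the tyrosine kinase bound to the receptor, ranged from 6.53 to 6.78 in HFD, 6.27 to 6.85 in CANA and 6.46 to 6.73 in CR. The CANA arrays held both the lowest and the highest value of the study. The CANA minus HFD difference was -0.12 (SE 0.12, limma adjusted p = 0.854) and the CR minus HFD difference -0.048 (SE 0.11, limma adjusted p = 0.999).

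Stat5b, the predominant STAT5 of male liver, was at 7.70, 7.54, 7.44 and 7.64 in HFD. It was at 7.88, 7.33, 7.49 and 7.13 in CANA and at 7.99, 7.39, 7.40, 7.61 and 7.34 in CR. Replicate 1 was the highest of its group in each of the 3 groups, and the HFD arrays lay within the range of both other groups. The differences were -0.12 (SE 0.16, limma adjusted p = 0.901) in CANA against HFD and -0.035 (SE 0.15, limma adjusted p = 0.999) in CR against HFD. Stat5a, its close relative, ranged from 5.55 to 6.28 in HFD, 5.69 to 6.03 in CANA and 5.81 to 6.42 in CR, with differences of -0.13 (SE 0.16, limma adjusted p = 0.895) and 0.056 (SE 0.15, limma adjusted p = 0.999). The pair are near-identical in coding sequence, so probes may share signal and the split between them is uncertain. These are transcript levels, and STAT5 acts through its phosphorylation, which arrays do not measure.

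Igf1, the hormone that carries growth hormone action to other tissues, was the steadiest product of the pathway. It was at 10.07, 10.42, 10.18 and 10.34 in HFD, at 9.96, 10.32, 10.38 and 10.34 in CANA, and at 10.13, 10.15, 10.20, 10.28 and 10.30 in CR. CANA replicate 1 was the lowest array of all, and the other arrays of the 3 groups overlapped. The group means were 10.25 ± 0.16, 10.25 ± 0.19 and 10.21 ± 0.075 (SD, n = 4, 4 and 5). The CANA minus HFD difference was -8.25e-04 (SE 0.11, limma adjusted p = 0.999), and its 95% interval corresponds to ratios of 0.852 to 1.17. For CR against HFD the difference was -0.037 (limma adjusted p = 0.999) with ratios of 0.838 to 1.13, and for CANA against CR it was 0.036 (limma adjusted p = 0.958) with ratios of 0.881 to 1.19. Without CANA replicate 1 the CANA minus HFD difference was 0.096 and did not pass (limma adjusted p = 0.827). These intervals are for a single gene and are not adjusted over the genes tested.

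Igfals, the acid-labile subunit that holds IGF1 in a long-lived plasma complex, was at 7.41, 7.50, 7.78 and 7.41 in HFD and at 7.24, 7.44, 7.36 and 7.30 in CANA. CR had 7.16, 7.61, 7.79, 7.20 and 7.62. The CANA arrays were close together and overlapped with the low end of HFD, and CR spanned both. The CANA minus HFD difference was -0.19 (SE 0.14, 95% interval -0.48 to 0.099, limma adjusted p = 0.763), and CR minus HFD was -0.049 (SE 0.13, limma adjusted p = 0.999).

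Socs2, a STAT5 target whose protein limits growth hormone receptor signalling, varied far more between arrays than between groups. It was at 5.73, 6.49, 6.54 and 5.89 in HFD and at 5.76, 5.62, 7.59 and 6.31 in CANA. In CR it was at 4.96, 5.88, 6.66, 6.48 and 7.61. CR replicates 1 and 5 held the lowest and the highest values of the study, and CANA replicate 3 nearly equalled the latter. The differences were 0.16 (SE 0.47) in CANA against HFD, 0.16 (SE 0.45) in CR against HFD and 8.04e-04 (SE 0.45) in CANA against CR, with limma adjusted p of 0.967, 0.999 and 1.00. Values ran from 4.96 to 6.66 (median 5.76) over the arrays numbered 1 to 8 and from 5.89 to 7.61 (median 6.51) over those numbered 9 to 14. Within the sets, the CANA minus HFD difference was -0.42 and 0.73, and CR minus HFD was -0.28 and 0.83, none past the threshold. The other Socs2 probe set ran from 4.49 to 5.13 and gave differences of 0.067, 0.0034 and 0.063.

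Cish, another STAT5-induced inhibitor of the same family, was at 5.23, 5.56, 4.67 and 5.63 in HFD, at 5.12, 5.28, 5.46 and 4.96 in CANA, and at 4.99, 4.86, 5.32, 5.16 and 5.24 in CR. HFD held both extremes. The differences were -0.071 (SE 0.18, limma adjusted p = 0.961) in CANA against HFD, -0.16 (SE 0.17, limma adjusted p = 0.999) in CR against HFD and 0.088 (SE 0.17, limma adjusted p = 0.926) in CANA against CR. The other Cish probe set gave differences of -0.34, -0.38 and 0.038 in these comparisons, and its arrays fell into separate levels. In HFD it was at 4.97, 5.29, 4.00 and 5.35, in CANA at 4.10, 5.18, 5.10 and 3.85, and in CR at 4.34, 4.15, 5.27, 3.93 and 4.92. HFD replicate 3, CANA replicates 1 and 4, and CR replicates 1, 2 and 4 were thus at 4.34 or less, and the other arrays were at 4.92 or more.

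Bcl6, the repressor, had the widest range of the 9 genes, 10.4-fold from the lowest array to the highest. It was at 6.02, 7.54, 8.44 and 5.94 in HFD replicates 1 to 4. It was at 8.56, 5.40, 5.26 and 8.14 in CANA and at 8.34, 8.09, 6.68, 8.29 and 5.18 in CR. High and low arrays occurred in each group, and the groups overlapped throughout. The means were 6.98 ± 1.22, 6.84 ± 1.75 and 7.32 ± 1.38 (SD, n = 4, 4 and 5). The differences were -0.14 (SE 0.82) in CANA against HFD, 0.33 (SE 0.78) in CR against HFD and -0.48 (SE 0.78) in CANA against CR, with limma adjusted p of 0.984, 0.999 and 0.911. The 95% interval of CANA against HFD, from 0.269 to 3.05 as a ratio, spans several-fold differences either way. Values ran from 5.40 to 8.56 over arrays 1 to 8 and from 5.18 to 8.44 over arrays 9 to 14, so both sets held high and low arrays.

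The SD between arrays of the same group was 1.46 for Bcl6, the rank 4 of 13308 tested genes, behind Moxd1, Cyp4a14 and Cyp2b9, which were looked up after that rank was seen. For Socs2 it was 0.82, at rank 32. Ghr, at 0.11, had a smaller spread than 88.2% of genes, and Igf1, at 0.14, a smaller one than 68.5%, while the median of all tested genes was 0.172. Jak2 was at 0.16, Igfals at 0.21, Stat5b at 0.25, Stat5a at 0.26 and Cish at 0.29. Socs2 and Cish each had another probe set, not ranked here, that ran from 4.49 to 5.13 and from 3.85 to 5.35. On the probe sets used, the members ranged from among the steadier to among the most variable genes of these livers.

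**Figure D3:**
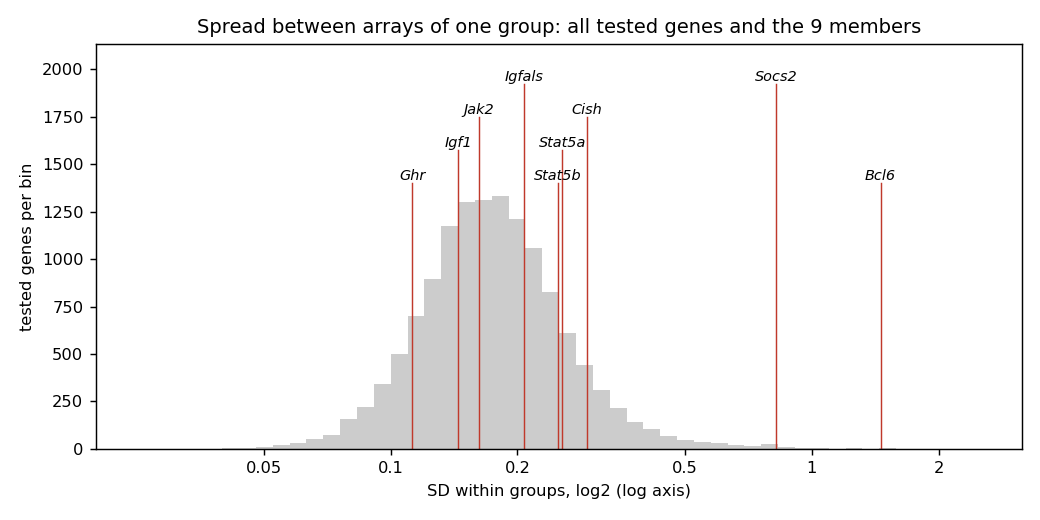
Distribution of the SD within groups (log2, log axis, 10 degrees of freedom) over 13308 tested genes in grey, with the 9 members as red lines. Ghr at 0.11 and Igf1 at 0.14 lie left of the median of 0.172, and Socs2 at 0.82 and Bcl6 at 1.46 lie in the far right tail.

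Cish was lower on the arrays with the highest Bcl6, which came from all 3 groups. The pair and the limit of 8 used here were both picked with the values in view, and what follows is a description. The 6 arrays with Bcl6 above 8, from 8.09 to 8.56, were HFD replicate 3, CANA replicates 1 and 4, and CR replicates 1, 2 and 4. These are the same 6 arrays that had the other Cish probe set at 4.34 or less. Their Cish values on the main probe set were 4.67 to 5.16, and the 7 arrays with lower Bcl6, from 5.18 to 7.54, had Cish at 5.23 to 5.63. Within these 6 and 7 arrays Pearson r was 0.149 and 0.410. Both sets are small and were cut on Bcl6 itself, so these values cannot show how the pair ran inside them. The largest gap in Bcl6 itself, 0.86, lay lower, between 6.68 and 7.54. With the limit placed in that gap, HFD replicate 2 (Bcl6 7.54, Cish 5.56, other Cish probe set 5.29) joins the high arrays, and the Cish values of both probe sets overlap. Over the 13 arrays r was -0.637 and rho -0.687 (permutation p = 0.0203 and 0.0115), and r was -0.565 without HFD replicates 3 and 4 and -0.458 and -0.765 within the serial-number sets. Neither passed after Benjamini-Hochberg adjustment over all 36 pairs of members (adjusted p = 0.365 and 0.415, 100000 resamples, two-sided). Jak2 with Stat5b, at r = -0.639 (permutation p = 0.0187), had the same adjusted p of 0.365 for r. Its rho was -0.538 (permutation p = 0.0600), and no pair had lower adjusted values than these.

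Onecut1, the gene of hepatocyte nuclear factor 6, is itself induced by growth hormone in liver and was on the list of liver transcription factors. It was also among the 4 genes least like Bcl6 by Pearson r over the 13 arrays, of 12220 named genes, with Osbpl7, Slc9a5 and Zfp292. Onecut1 was at 8.62, 8.39, 6.81 and 8.85 in HFD, at 6.66, 8.15, 8.24 and 7.67 in CANA, and at 6.41, 6.55, 8.92, 6.78 and 9.17 in CR. The 6 arrays with high Bcl6 had Onecut1 at 6.41 to 7.67, and the 7 others at 8.15 to 9.17. Since both the gene and the limit were chosen with these values in view, that separation carries no weight of its own, and with the limit in the largest gap of Bcl6 the values overlap, HFD replicate 2 being at 8.39. Its SD within groups was 1.07, rank 13 of all tested genes. Its group differences did not pass, at -0.48 (SE 0.61, limma adjusted p = 0.897) in CANA against HFD and -0.60 (SE 0.58, limma adjusted p = 0.999) in CR against HFD. The labels used here give no time of day, feeding state or hormone level at death, so their part in this spread was not tested.

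**Figure D4:**
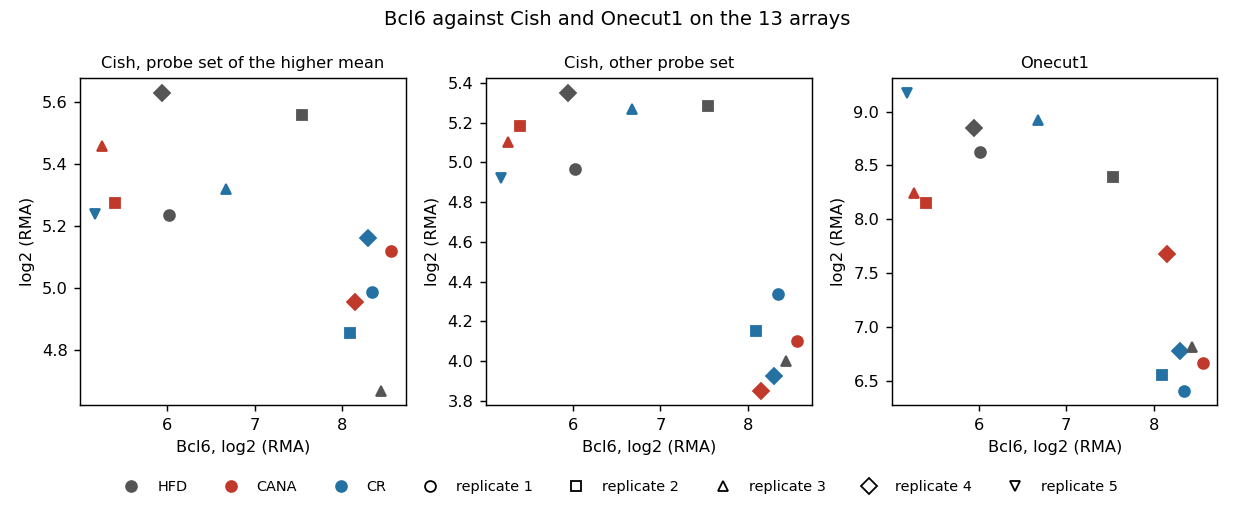
Log2 values of the Cish probe set with the higher mean, the other Cish probe set and Onecut1 against Bcl6 on 13 arrays, coloured by group, with a marker shape for each replicate. The 6 arrays with Bcl6 above 8, a limit chosen after the values were seen, come from all 3 groups and lie at no more than 5.16, 4.34 and 7.67; HFD replicate 2, next at 7.54, lies high in every panel, at 5.56, 5.29 and 8.39.

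The other relations were those between signal, products and inhibitors. Of the 6 relations chosen for testing, none passed, each over 13 arrays with permutation p adjusted over the 6. Igf1 and Socs2 had a Pearson r of 0.497 and a Spearman rho of 0.484 (permutation p = 0.0842 and 0.0968, adjusted p = 0.253 for r). Without the 2 arrays farthest in Igf1 r was 0.434, and within the serial-number sets it was 0.404 and 0.182. Socs2 and Stat5b had r = -0.519 and rho = -0.385 (permutation p = 0.0685 and 0.195, adjusted p = 0.253 for r). Without CR replicates 1 and 5, the arrays farthest in Socs2, r was -0.209, so the value of r rested on them, and within the serial-number sets it was -0.598 and -0.186. Igf1 with Igfals was at r = 0.070 and rho = 0.088 (permutation p = 0.822 and 0.779), Igf1 with Ghr at r = 0.092 and rho = 0.093 (permutation p = 0.761 and 0.765), and Socs2 with Cish at r = 0.234 and rho = 0.258 (permutation p = 0.444 and 0.393). For Socs2 and Bcl6 r was -0.413 and rho -0.330 (permutation p = 0.163 and 0.270, adjusted p = 0.326 for r). Without CR replicates 1 and 5 that r was -0.113, and within the serial-number sets it was -0.183 and -0.591.

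The genes most like Igf1 over the 13 arrays were Elapor1, Rnft1, Ugt2a3 and Cpq, with r from 0.814 to 0.876. Elapor1, the first of them, was dim at 3.81 to 4.49, and its lowest arrays, HFD replicate 1 and CANA replicate 1 (3.86), lay below the filter level of 3.95 and were also the arrays farthest in Igf1. Those most like Socs2 were E2f8, Phgdh, Crmp1 and Troap, with r from 0.816 to 0.843. E2f8, a cell-cycle factor, ranged from 5.89 to 7.29, while Crmp1 ranged from 4.21 to 4.76 and Troap from 4.12 to 4.53, not far above the filter on dim genes. These are the ends of a ranking of 12220 genes and share the same arrays, so they carry no test.

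No other gene of growth hormone receptor signalling passed. Of 18 partners of the receptor, 15 were tested and 0 passed in any comparison. The median CANA minus HFD difference was 0.046, and 10 of 15 were above zero, beside 46.1% of all tested genes. The smallest p values were those of Shc1, an adaptor protein gene (-0.24, limma adjusted p = 0.573), Sh2b1, a JAK2-binding adaptor (0.18, limma adjusted p = 0.675), and the phosphatase gene Ptpn11 (0.14, limma adjusted p = 0.748). In CR against HFD their differences were -6.41e-04, 0.11 and -0.012.

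The IGF system outside the members held the 1 gene of all these lists that passed. Igfbp1, an IGF-binding protein that insulin represses, was at 8.27, 8.92, 8.65 and 8.72 in HFD and at 10.39, 11.36, 12.49 and 10.68 in CANA. CR had 8.69, 8.63, 8.74, 10.29 and 10.54, with replicates 4 and 5 near the CANA arrays and the other CR arrays within the HFD range. CR replicates 1 to 3 carry serial numbers 3, 6 and 8, and replicates 4 and 5 carry 11 and 14. The split within CR thus falls on the serial-number sets, whose part in it was not tested. In HFD and in CANA the values of these sets overlapped. Igfbp1 rose by 2.59 on the log2 scale in CANA against HFD (SE 0.46, limma adjusted p = 0.038), and the groups did not overlap. The call was kept in 15 of 25 other settings and lost in 10, with the difference between 2.17 and 2.90 and adjusted p between 0.0059 and 0.126. It was lost without any single HFD array (adjusted p 0.082 to 0.108) and without CANA replicate 2, 3 or 4 (0.088, 0.123 and 0.051). In CR against HFD Igfbp1 was at 0.74 (SE 0.44, limma adjusted p = 0.999), and in CANA against CR at 1.85 (SE 0.44, limma adjusted p = 0.165). Igfbp2 was at 0.50 (SE 0.20, limma adjusted p = 0.446) and Igfbp3, the partner of Igfals in the plasma complex, at 0.28 (SE 0.12, limma adjusted p = 0.520) without passing. Of 12 tested genes 6 were above zero in CANA against HFD, beside 46.1% of all tested genes, and the median was -0.011. Igf1 and its carrier gene thus stood at differences of -8.25e-04 and -0.19 in the same arrays in which Igfbp1 was higher.

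Male-biased liver genes depend on pulsed growth hormone and STAT5b. Of 16 tested, several of them Mup and Cyp genes with close relatives that can share probes, 0 passed in any comparison. In CANA against HFD 11 were below zero (median -0.11), as were 7170 of 13308 genes. In CR against HFD 14 were (median -0.17), as were 7135 of 13308 genes. Elovl3, a fatty acid elongase, went the other way, at 1.20 in CANA (SE 0.33, limma adjusted p = 0.210) and 0.81 in CR (SE 0.31, limma adjusted p = 0.999). Hsd3b5, a steroid dehydrogenase of male liver, was at -0.77 in CANA against HFD (SE 0.35, limma adjusted p = 0.545), and the glucuronosyltransferase gene Ugt2b1 at -0.25 (limma adjusted p = 0.680). CR replicates 1 and 5 were the lowest arrays for this list, at -0.36 and -0.42 around the gene means, while the other CR arrays were at 0.11 to 0.24 and the HFD arrays at -0.0080 to 0.11. With CR replicates 1 and 5 left out, 5 of 16 were below zero in CR against HFD, with a median of 0.078. These arrays were left out after the values were seen. They were the lowest arrays of this list, so leaving them out had to raise its mean. That turn therefore carries no weight of its own. The same arrays, 1 and 5, lay at opposite ends for Bcl6 (8.34 and 5.18), Socs2 (4.96 and 7.61) and Onecut1 (6.41 and 9.17). The 5 Kupffer cell markers were at -0.20 and -0.74 around their means in these arrays, but also at -0.59 in HFD replicate 3. Their part was not tested. Without both arrays, 0 of the 9 members and 0 of the genes of these lists passed in limma for CR against HFD, as did 0 of all genes. At an unadjusted p under 0.05 there were 0 members and 2 list genes, beside 591 of all 13308 genes.

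Female-biased liver genes are held low in males by the pulsed pattern. Of 22 genes 11 were tested, and 0 passed. Of these, 7 were above zero in CANA against HFD and 8 in CR against HFD (medians 0.38 and 0.19). Among all tested genes 46.1% and 46.4% were above zero. Without CR replicates 1 and 5, 4 were above zero in CR against HFD (median -0.11). Those were the highest CR arrays for this list, at 0.35 and 0.81 around the gene means. A lower list mean without them was thus fixed by the choice. The largest value was that of Cyp4a14, which is also a PPAR-alpha target and can share probes with its relatives (3.51, SE 0.89, limma adjusted p = 0.166). Slc22a26, a dim transporter gene with group means of 3.82 to 4.39, was at 0.57 (SE 0.15, limma adjusted p = 0.185), and Cux2, a female-specific repressor, was at -0.24 (limma adjusted p = 0.711).

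Mouse livers that lack the receptor or STAT5 are known to raise genes of lipid uptake and storage. The list used for them also held Ppargc1a, which is not a gene of uptake or storage. Of its 8 tested genes, 0 passed in any comparison. In CANA against HFD 7 were above zero (median 0.43), beside 46.1% of all tested genes. In CR against HFD 8 were (median 0.10), beside 46.4% of all tested genes. Without CR replicates 1 and 5, 3 were above zero in CR against HFD (median -0.13). Here too those were the highest CR arrays, at 0.060 and 0.28 around the gene means, so a lower list mean without them was fixed. Ppargc1a, a coactivator of fasting genes, was at 1.37 (SE 0.26, limma adjusted p = 0.051), the lipid droplet gene Cidec at 0.87 (SE 0.34, limma adjusted p = 0.453) and Pparg at 0.45 (SE 0.28, limma adjusted p = 0.715). Adipocyte markers bear on these genes: Adipoq and Lep were below the tested range, and the mean of Plin1 and Fabp4, the other 2 of the 4, was 4.78 to 5.32 in HFD, 5.13 to 5.73 in CANA and 4.81 to 5.18 in CR; their part was not tested.

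No transcription factor of hepatocytes on the list passed. Of 9 tested, 7 were below zero in CANA against HFD (median -0.26), as were 7170 of 13308 genes, and in CR against HFD 5 were (median -3.63e-04), as were 7135 of 13308 genes. Cebpb was at 0.41 (SE 0.10, limma adjusted p = 0.166), the glucocorticoid receptor gene Nr3c1 at -0.26 (SE 0.089, limma adjusted p = 0.361) and the pioneer factor gene Foxa1 at -0.37 (SE 0.13, limma adjusted p = 0.393). At an unadjusted p under 0.05, 4 were lower and 1 was higher in CANA against HFD, beside 691 lower and 483 higher of all 13308 genes.

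**Figure D5:**
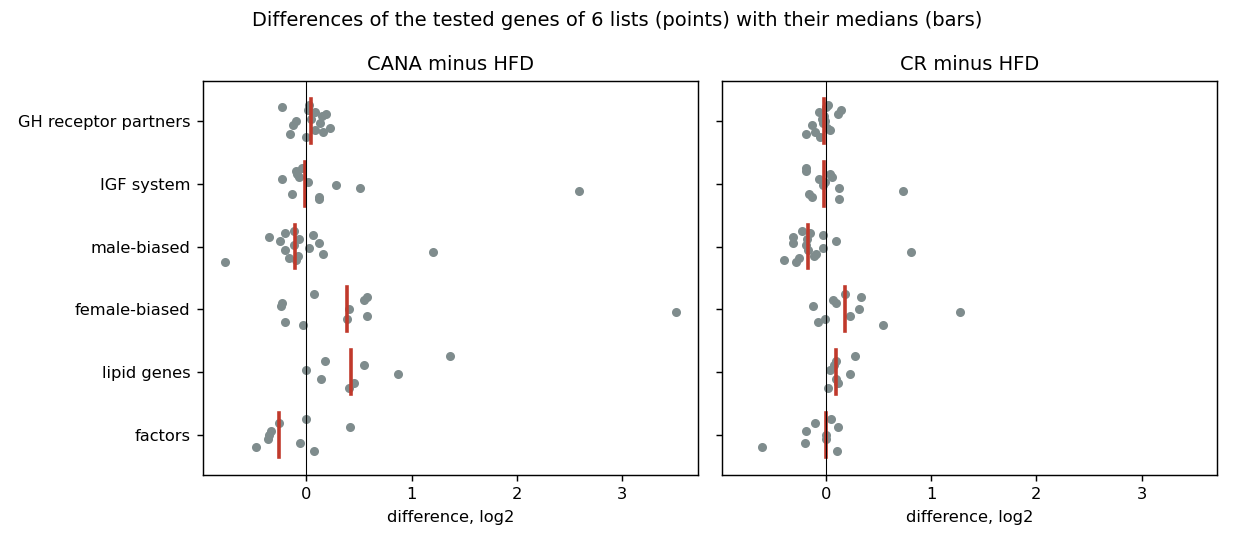
Log2 differences of each tested gene (points) and the median (red bar) of 6 gene lists in CANA minus HFD and CR minus HFD. Igfbp1, at 2.59 in the IGF system row on the left, is the 1 point that passed, in 15 of 25 other settings too; the medians on the left lie between -0.26 and 0.43 and on the right between -0.17 and 0.19.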

How the data were processed

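Liver RNA (250 ng, TRIzol) was labelled and hybridised to Affymetrix arrays per the labels. Deposited values are on a log2 scale, and the submitters' processing notes name RMA and Affymetrix Expression Console; versions are not given in the sources used here. The number of arrays limits the precision. Of 41345 probe sets, 23521 had exactly 1 gene symbol, 1814 had several and 16010 had none; 23328 were matched to RefSeq symbols by Entrez identifier. A filter on dim genes kept those whose mean reached the 40th percentile (3.95). Groups came from the sample titles and were compared in 1 limma 3.58.1 fit (R 4.3.3) of the 13 arrays; no covariate was used, and residual and prior degrees of freedom were 10 and 5.71. The pipeline was tested on simulated data. Named genes were all members, up to 3 genes of each list (4 if called) by call and smallest p in CANA against HFD, and the 4 genes most like Igf1 and Socs2; Onecut1 and the genes unlike Bcl6 were added after their values were seen. The members and lists were chosen with earlier results of these data known. Other settings were other filters, normalization, centring, variance models, array weights, probe-set means, array subsets, blocks, and each array left out.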

Additional observations from a re-analysis of the deposited data

Results flagged for a closer look

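Single arrays stood apart from their group in 2 of the 27 sets of values checked (9 genes in 3 groups), and chance gives about 1 in 20. Ghr in HFD replicate 1 was at 8.97, below the other HFD arrays at 9.19 to 9.22. Igf1 in CANA replicate 1 was at 9.96, below the other CANA arrays at 10.32 to 10.38.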

How the results depend on the processing

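No member passed in any of the 80 recounts under other settings, and the lowest limma adjusted p of a member was 0.328. Of 693 recomputed differences, 632 kept their direction; 61 reversed, of which 1 concerned a difference larger than its SE. Over all genes, 22 passed in CANA against HFD, but 12 with no filter, 39 with the stricter filter, 14 with the trended robust variance, 46 with the serial-number term, 2 and 0 within the serial-number sets, and 3 to 38 with single arrays left out. In CANA against CR 20 passed, but 5 and 0 within the sets and 7 to 23 with single arrays left out. Arrays of the same replicate number had correlations of deviations from -0.15 to 0.296, which do not settle whether these numbers pair the arrays. With the replicate block, the SE in CANA against HFD fell from 0.47 to 0.26 for Socs2 and from 0.16 to 0.12 for Stat5b. That of Jak2 rose from 0.116 to 0.119 and that of Cish from 0.18 to 0.20. Under this block 0 members were called. Only CR has a replicate 5, so the block leaves that array no part in the CR differences. Stat5b and Socs2 in CR against HFD were at 0.016 and -0.17 under it, as they were without CR replicate 5. In CANA against HFD, Igf1 was at 0.013 with cyclic loess, 0.0063 with centring on the median and 0.0063 with array weights. Within serial numbers 1 to 8, CANA against HFD gave Stat5a 0.15, Socs2 -0.42 and Bcl6 0.20; CR against HFD gave Ghr 0.022, Socs2 -0.28 and Igfals 0.065; CANA against CR gave Stat5b 0.011, Socs2 -0.14 and Igf1 -0.021. Within 9 to 14, CANA against HFD gave Jak2 0.095, Cish 0.058 and Igf1 0.10; CR against HFD gave Stat5a -0.26, Cish 0.053, Igf1 0.034 and Bcl6 -0.45; CANA against CR gave Jak2 0.098 and Socs2 -0.097. Socs2 in CANA against CR was at -1.37e-05 with cyclic loess, -0.0017 with centring, -0.087 with the serial-number set as a term and -0.022 without CR replicates 1 and 5, where CR against HFD gave Stat5a -0.083 and Igfals 0.0090. The last setting was added after the data were seen. With single arrays left out, CANA against HFD ran from -0.061 to 0.096 for Igf1, -0.71 to 0.38 for Bcl6, -0.27 to 0.048 for Cish and -0.27 to 0.39 for Socs2. CR against HFD ran from -0.15 to 0.016 for Stat5b, -0.10 to 0.14 for Stat5a, -0.13 to 0.036 for Igfals, -0.097 to 0.019 for Igf1, -0.015 to 0.87 for Bcl6 and -0.17 to 0.50 for Socs2. CANA against CR ran from -0.17 to 0.018 for Jak2, -0.23 to 0.024 for Stat5b, -0.42 to 0.32 for Socs2, -1.05 to 0.051 for Bcl6 and -0.0065 to 0.13 for Igf1. Without the 2 farthest arrays r was -0.245 for Igf1 with Igfals and -0.312 for Igf1 with Ghr, and within serial numbers 9 to 14 it was -0.675 and -0.651. Apart from the shifts of Stat5b and Socs2 in CR against HFD under the replicate block, the cause of these changes was not tested.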
